A study of Mus musculus with 6 samples.

Results

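The receptors described here are the type 2 vomeronasal receptor (V2R) genes of mouse chromosome 7. They were taken by name: Vmn2r28 to Vmn2r79, without Vmn2r53 and Vmn2r65 and without pseudogenes. The rule uses no measured value. It finds 49 protein-coding genes of the 35450 genes in the tables, and 49 of the 121 V2R genes that carry a plain number. Of these, 25 lie between Vmn2r28 and Vmn2r52 and 24 between Vmn2r54 and Vmn2r79.

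V2Rs are class C G protein-coupled receptors with a large extracellular ligand-binding domain. They are made by neurons of the basal layer of the vomeronasal organ, which signal through the G protein subunit Gnao1 and detect peptide and protein pheromones. A basal neuron typically makes 1 variable V2R together with a broadly expressed co-receptor of the Vmn2r1 to Vmn2r7 family. Cnpy1 belongs to the Canopy family of endoplasmic reticulum proteins.

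The series measured poly(A) RNA of the vomeronasal organ at postnatal day 60 in 3 Cnpy1+/+ (wild-type) and 3 Cnpy1-/- (knockout) mice, with 2 males and 1 female in each genotype. The series' design text calls them littermates, without saying which mice shared a litter. Wild-type mouse 2 and knockout mouse 3 were the females. Both organs of a mouse went into 1 library, so each library is 1 animal. The labels do not describe the knockout allele or the strain.

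The 6 libraries held 60786502 to 71416485 estimated reads in genes. Cnpy1 itself was at 280, 303 and 325 CPM (counts scaled to library size with TMM factors) in the wild-type mice and at 67.2, 77.6 and 76.3 in the knockouts, so transcript reads remained in the knockouts but at 24.3% of the wild-type level. The 6 fixed markers of basal neurons were all detected and summed to 1083 to 1104 CPM in wild types and 869 to 912 in knockouts. The 4 markers of apical neurons, the other vomeronasal class, summed to 1089 to 1151 and 1198 to 1263. All 6 basal markers had log2 fold changes below 0, but only Vmn2r1 and Gnao1 had an edgeR adjusted p under 0.05. B2m, the largest of the 6, was at −0.08. None of the 4 apical markers had such a p. Their log2 fold changes were 0.17 (Gnai2), 0.14 (Meis2), 0.09 (Nrp2) and −0.07 (Pde4a). Nrp2 and Pde4a overlapped between genotypes. Fewer neurons of a kind and less RNA per neuron cannot be told apart in such bulk tissue.

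By position, the 49 genes fell into 5 clusters more than 1 Mb apart (GRCm38, GENCODE M21). Vmn2r28 stood alone at chr7:5477255-5493956. The 24 genes Vmn2r29 to Vmn2r52 filled chr7:7231327-10176573. Vmn2r54 to Vmn2r56 lay at chr7:12613839-12735004, the 7 genes Vmn2r57 to Vmn2r63 at chr7:41395945-42933822, and the 14 genes Vmn2r66 to Vmn2r79 at chr7:84985366-87044941.

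The lower-numbered block is made of near-copies. A gene of Vmn2r28 to Vmn2r52 had a median of 11.9% of its 31-base words in no other gene (range 0% to 80.7%), and only 4 genes passed 50%. In Vmn2r54 to Vmn2r79 the median was 77.2% (range 14.6% to 94.5%), and 21 genes passed 50%. A program that divides ambiguous reads by estimation has little sequence with which to separate the first kind. The likeness can be read directly in 3 genes of the largest family, shown as the first 120 bases of the last coding exon (GENCODE M21, 5′ to 3′ of the transcript). Capitals mark bases that differ from the most common base of the family at that place.

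Vmn2r40, chr7:8908519-8908638, minus strand: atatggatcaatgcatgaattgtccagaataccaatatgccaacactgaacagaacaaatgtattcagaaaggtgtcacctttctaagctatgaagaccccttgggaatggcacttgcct

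Vmn2r41, chr7:8138690-8138809, minus strand: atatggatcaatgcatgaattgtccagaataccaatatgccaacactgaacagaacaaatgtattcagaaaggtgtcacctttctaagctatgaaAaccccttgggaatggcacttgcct

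Vmn2r30, chr7:7313059-7313178, minus strand: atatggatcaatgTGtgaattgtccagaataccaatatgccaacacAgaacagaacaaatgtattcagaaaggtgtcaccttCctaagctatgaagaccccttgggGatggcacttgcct

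In this stretch Vmn2r36 and Vmn2r48 are identical to Vmn2r40, while Vmn2r41 carries 1 differing base and Vmn2r30 carries 5. The upstream DNA of Vmn2r40 and Vmn2r41 is as alike. The 250 bases before their RefSeq starts (GRCm38.p6) are the same letter for letter (250 of 250), at chr7:8931403-8931652 and chr7:8161552-8161801 on the minus strand. Their GENCODE starts lie 33 bases (Vmn2r40) and 103 bases (Vmn2r41) further upstream, so that much of each window is inside the GENCODE gene. The Vmn2r40 copy is shown because these genes had opposite genotype differences as estimated.

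Vmn2r40, chr7:8931403-8931652, minus strand: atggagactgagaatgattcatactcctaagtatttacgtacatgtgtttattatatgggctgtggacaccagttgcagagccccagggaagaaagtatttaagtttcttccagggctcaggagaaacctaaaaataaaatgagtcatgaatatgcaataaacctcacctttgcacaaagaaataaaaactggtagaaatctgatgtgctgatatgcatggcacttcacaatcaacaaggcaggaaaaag

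Within Vmn2r28 to Vmn2r52, the estimated reads of some genes were lower in knockouts and those of their near-copies higher. Vmn2r44 had the largest fall and Vmn2r41 the largest rise. Of 23 genes tested, 7 were lower by edgeR's quasi-likelihood F test at an adjusted p under 0.05 (Benjamini-Hochberg, over 16679 genes), 5 were higher, and 11 were not called. Over all genes tested, 0.761% were called, 0.683% lower and 0.0779% higher. The median log2 fold change of the block was −0.42, against 0.01 for all genes. In 12 genes every knockout was below every wild type and in 6 every knockout was above; over all genes these shares were 8.95% and 7.22%.

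Vmn2r44 was at 139.6, 143 and 152 CPM in the wild types and at 42.6, 62.5 and 59.2 in the knockouts. The groups were far apart, with a log2 change of −1.40 (SE 0.13; edgeR adjusted p = 0.00176). Vmn2r40 was at 120.2, 115 and 139 CPM in wild types and 58.9, 69.5 and 58.99 in knockouts. It fell by 1.00 on the log2 scale (SE 0.09; edgeR adjusted p = 0.00176), to 50.1% of the wild-type level.

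Vmn2r41, with the same 250 bases before its RefSeq start, went the other way. It was at 10.96, 9.38 and 11.8 CPM in wild types and at 20.9, 23.2 and 22.7 in knockouts, again without overlap. The rise was 1.05 on the log2 scale (SE 0.09; edgeR adjusted p = 0.00152). Vmn2r33 rose as well, from 7.25, 7.23 and 8.82 CPM to 12.8, 16 and 14.4 (log2 0.89, SE 0.12; edgeR adjusted p = 0.0123). Its upstream 250 bases differ from those of the falling Vmn2r44 at 1 base, in capitals below (RefSeq, GRCm38.p6). The GENCODE start of Vmn2r44 lies 95 bases further upstream, inside its window.

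Vmn2r33, chr7:7566787-7567036, minus strand: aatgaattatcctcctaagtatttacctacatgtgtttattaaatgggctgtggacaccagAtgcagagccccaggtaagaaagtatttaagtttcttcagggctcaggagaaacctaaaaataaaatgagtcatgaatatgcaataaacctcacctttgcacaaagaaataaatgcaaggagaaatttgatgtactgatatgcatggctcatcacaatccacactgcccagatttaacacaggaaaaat

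Vmn2r44, chr7:8383239-8383488, minus strand: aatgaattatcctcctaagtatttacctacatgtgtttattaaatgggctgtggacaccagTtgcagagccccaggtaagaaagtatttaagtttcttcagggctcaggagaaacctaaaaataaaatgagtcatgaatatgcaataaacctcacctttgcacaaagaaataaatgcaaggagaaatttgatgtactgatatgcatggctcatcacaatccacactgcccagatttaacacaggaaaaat

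The other genes called lower were Vmn2r29 (log2 −1.08), Vmn2r31 (−0.99), Vmn2r37 (−0.71), Vmn2r36 (−0.69) and Vmn2r42 (−0.68). The other genes called higher were Vmn2r38 (log2 0.87), Vmn2r50 (0.85) and Vmn2r32 (0.75). Vmn2r31, where 53.02% of the words are its own, was the only called gene of the block above 50%. It was at 45.9, 36.1 and 44.0 CPM in wild types and 18.9, 24.2 and 20.4 in knockouts. The 3 other genes above 50%, Vmn2r28, Vmn2r30 and Vmn2r52, had log2 fold changes of −0.77, −0.56 and −0.42 and were not called. Vmn2r28 was called lower in 5 of 16 alternative settings, among them without knockout mouse 2 (edgeR adjusted p = 0.00910, against up to 0.236 without another mouse), and Vmn2r30 in 3. In all 4 of these genes every knockout was below every wild type. Vmn2r46 and Vmn2r47 were listed at 0 in all 6 libraries; 1.43% and 0% of their words are their own, and why they are at 0 was not tested. Some genes with reads have as little, such as Vmn2r35 (1.21%) and Vmn2r48 (0.0788%).

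Several of these calls rested on all 6 mice. Leaving out 1 mouse at a time, the count of genes called lower was 3 without wild-type mouse 1, 2 or 3, and 4 without knockout mouse 1 or 3. The count called higher was 2 without wild-type mouse 1 and 1 without wild-type mouse 2. Vmn2r31, Vmn2r40, Vmn2r41 and Vmn2r44 kept their call in each of the 6 fits, with edgeR adjusted p-values up to 0.0437. Vmn2r29, Vmn2r36 and Vmn2r42 kept it in 1 fit, Vmn2r37 and Vmn2r38 in 2, and Vmn2r32, Vmn2r33 and Vmn2r50 in 4. The highest edgeR adjusted p among these 8 genes was 0.167, for Vmn2r38. No direction changed. With sex as a term, 3 genes of the block were called lower. DESeq2, which called 2.3% of all genes (1.77% lower and 0.531% higher), called 12 genes of the block lower and 6 higher.

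**Figure D1:**
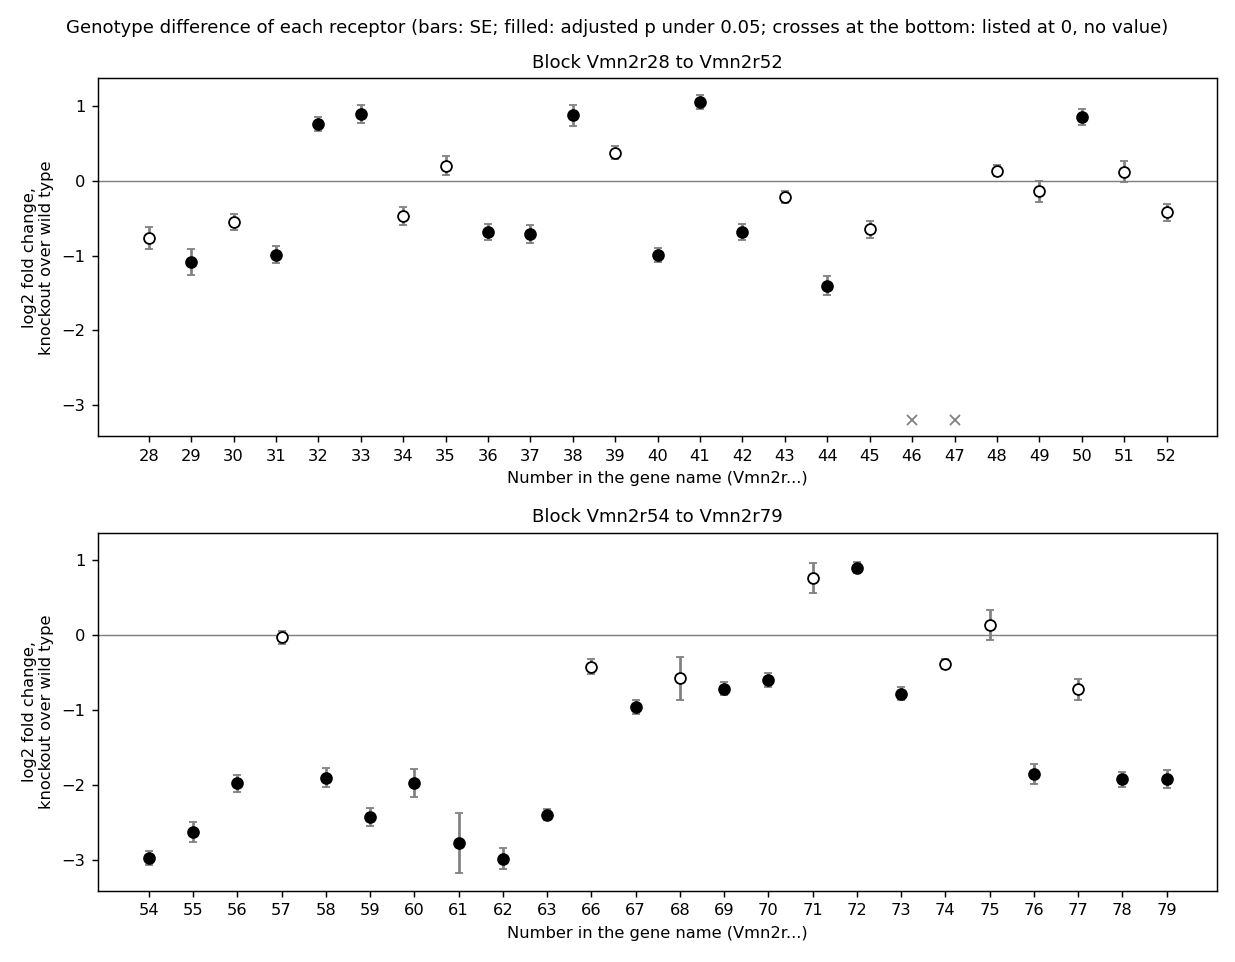
Log2 fold change of each receptor, knockout over wild type, by the number in its name; bars are SE and filled circles have an edgeR adjusted p under 0.05. Values in Vmn2r28 to Vmn2r52 lie from −1.40 to 1.05 on both sides of 0, while 21 of 24 in Vmn2r54 to Vmn2r79 lie below 0, down to −2.99; crosses mark Vmn2r46 and Vmn2r47, listed at 0.

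Summing reads over near-copies takes the division of reads within each sum out of the comparison, but not the division between sums. Of the words of Vmn2r30, for example, 26.6% are in Vmn2r45, which fell in another sum. V2R genes and pseudogenes sharing at least 50% of the 31-base words of the smaller gene were joined. The 25 genes of the lower-numbered block then formed 9 rows: 8 groups and Vmn2r52 alone. In edgeR's test of these rows 2 were called lower and none higher, so none of the 5 genes called higher belonged to a group whose sum was called higher. At an unadjusted p under 0.05, 1 group had a positive difference, that of Vmn2r39 (log2 0.19, edgeR adjusted p = 0.456), and its genotypes overlapped. In this fit 0.643% of all rows were called, 0.601% lower and 0.0421% higher. DESeq2 and limma were not run on these sums.

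The group of Vmn2r31, Vmn2r33, Vmn2r38, Vmn2r44 and 3 pseudogenes was at 202, 195 and 217 CPM in the wild types. It was at 86.3, 115 and 109 in the knockouts, below every wild type (log2 −0.98, SE 0.11; edgeR adjusted p = 0.00466). Its composition differed between the genotypes. Vmn2r44 held 70.7% ± 2.09 of the group's reads in wild types and 52.7% ± 2.87 in knockouts (SD, n = 3 each). Vmn2r33 held 3.79% ± 0.253 and 13.97% ± 0.792, and Vmn2r38 held 2.56% ± 0.264 and 9.37% ± 0.678. The Vmn2r29 group, with 25.7% of its reads on pseudogenes, was the other sum called lower (log2 −0.90, edgeR adjusted p = 0.0347).

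The largest group joins Vmn2r30, Vmn2r36, Vmn2r40, Vmn2r41, Vmn2r47, Vmn2r48, Vmn2r51 and 4 pseudogenes. It was at 701, 739 and 834 CPM in wild types and 523, 595 and 595 in knockouts. All knockouts were lower, but the sum was not called (log2 −0.41, SE 0.09; edgeR adjusted p = 0.112). Inside it, Vmn2r40 held 16.4% ± 0.822 of the reads in wild types and 10.95% ± 0.919 in knockouts. Vmn2r41 held 1.42% ± 0.148 and 3.90% ± 0.0951, and Vmn2r48 held 16.3% ± 0.0264 and 23.8% ± 1.49. The genotypes did not overlap in any of these 3 shares. Few of these genes' words are their own, 2.53% in Vmn2r40, 5.32% in Vmn2r41 and 0.0788% in Vmn2r48, as in Vmn2r33 (4.85%) above.

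In the group of Vmn2r32, Vmn2r42, Vmn2r49 and 1 pseudogene, the sum overlapped between genotypes, 495 ± 57.5 against 433 ± 51.2 CPM (SD, n = 3 each). Vmn2r32 nevertheless held 11.5% ± 0.182 of it in wild types and 22.2% ± 0.536 in knockouts, and Vmn2r42 held 48.2% ± 1.89 and 34.2% ± 0.970. In the group of Vmn2r39, Vmn2r43 and Vmn2r50, the share of Vmn2r50 was 18.6% ± 1.67 and 29.2% ± 2.56. The groups of Vmn2r28, Vmn2r34 and Vmn2r35 had sums with log2 fold changes of −0.76, −0.63 and 0.26 that were not called. Whether the shares differ in the tissue or through the division of reads was not tested. The outcome also depends on how the copies are joined: at 80% of shared words, 4 of 17 rows holding these genes were called lower and 2 higher, and at 20% neither of 2 rows was called.

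**Figure D2:**
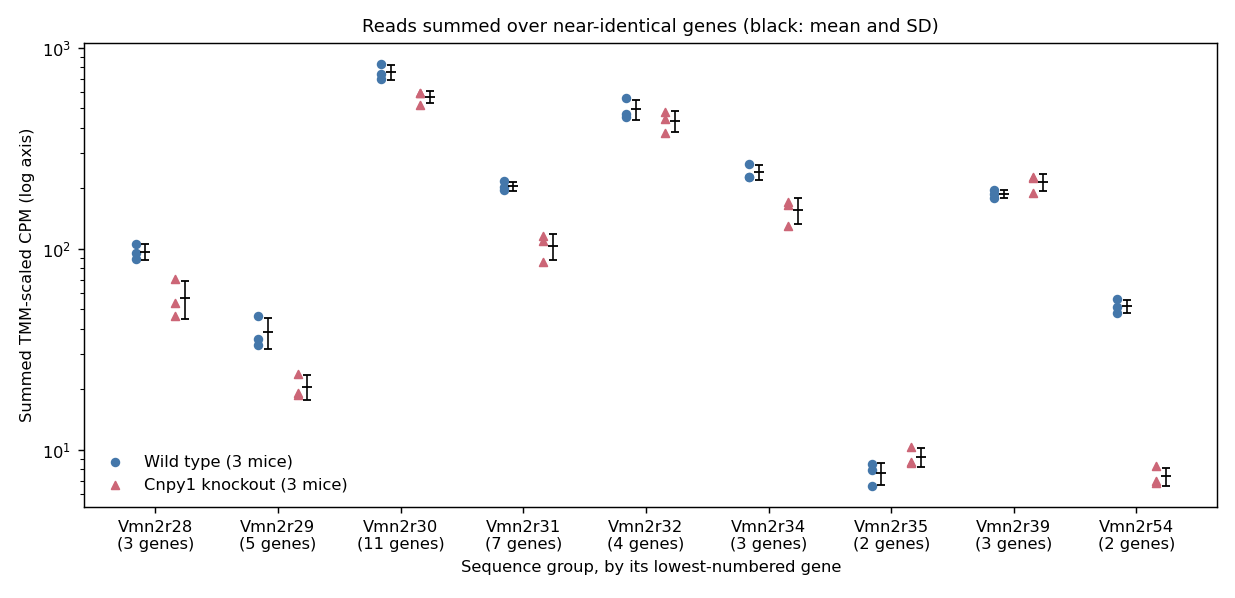
Summed TMM-scaled CPM (log axis) of each group of near-identical genes in each mouse, circles for wild type and triangles for knockout, with mean and SD in black. The groups of Vmn2r31 and Vmn2r54 separate widely, and those of Vmn2r32 and Vmn2r39 overlap.

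The higher-numbered block, where most genes have sequence of their own, was lower in knockouts at most genes. Of 24 genes tested 16 were called lower and 1 higher by edgeR, with the background of 0.683% and 0.0779% given above, and 7 were not called. The median log2 fold change was −1.41. Every knockout was below every wild type in 19 genes and above in 2, against 8.95% and 7.22% of all genes tested. Of the genes called, 6 were at least 4-fold lower, against 23 among all 16679 genes tested.

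In the cluster of Vmn2r54 to Vmn2r56, all 3 genes fell. Vmn2r54 was at 31.1, 25.3 and 27.3 CPM in the wild types and at 3.41, 3.61 and 3.56 in the knockouts, 7.92-fold lower (log2 −2.98, SE 0.10; edgeR adjusted p = 4.45e-06). Vmn2r55 was at 24.9, 22.7 and 23.7 CPM and at 3.41, 3.39 and 4.69 (log2 −2.63, SE 0.13; edgeR adjusted p = 3.48e-05). Of the words of Vmn2r55, the smaller gene, 52.6% are in Vmn2r54, and 31.2% the other way; their summed reads were called lower too (log2 −2.81, SE 0.10; edgeR adjusted p = 7.41e-06). Vmn2r56, with 76.6% of its words its own, went from 14.7, 12.3 and 14.4 CPM to 3.49, 3.12 and 3.85 (log2 −1.98). In all 3 genes the highest knockout was far below the lowest wild type. The upstream bases of Vmn2r54 and Vmn2r55 are shown because these neighbours fell together; they are 96.0% identical, and capitals mark the 10 differing bases (RefSeq, GRCm38.p6). The RefSeq start of Vmn2r54 used here is 4185 bases downstream of the GENCODE start, so its whole window lies inside the GENCODE gene. For Vmn2r55 the distance is 12 bases in the same direction.

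Vmn2r54, chr7:12636135-12636384, minus strand: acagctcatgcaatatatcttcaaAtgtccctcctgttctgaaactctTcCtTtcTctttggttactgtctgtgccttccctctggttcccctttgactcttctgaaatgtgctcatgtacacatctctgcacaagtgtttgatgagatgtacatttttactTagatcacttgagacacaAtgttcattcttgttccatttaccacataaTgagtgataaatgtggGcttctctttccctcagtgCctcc

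Vmn2r55, chr7:12684992-12685241, minus strand: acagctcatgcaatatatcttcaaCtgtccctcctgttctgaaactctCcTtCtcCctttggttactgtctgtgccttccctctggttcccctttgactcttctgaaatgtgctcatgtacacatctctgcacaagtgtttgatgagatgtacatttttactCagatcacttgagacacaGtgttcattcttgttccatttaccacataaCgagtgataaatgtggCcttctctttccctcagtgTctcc

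The cluster of Vmn2r57 to Vmn2r63 held 6 genes that fell by 1.91 to 2.99 on the log2 scale and 1 that was not called. Vmn2r62 was at 13.1, 11.9 and 14.5 CPM in wild types and 1.37, 1.85 and 1.76 in knockouts (log2 −2.99, SE 0.14; edgeR adjusted p = 3.15e-05). Only 14.6% of its words are its own, the lowest share of this block, although no single V2R gene shares 50% of them. Vmn2r59, with 83.8% its own, was at 23.4, 22.1 and 29.4 CPM and at 4.55, 4.54 and 4.79, and so was 5.40-fold lower (log2 −2.43, SE 0.12; edgeR adjusted p = 3.48e-05). Vmn2r58 and Vmn2r60 had log2 fold changes of −1.91 and −1.98. Vmn2r61 had few reads, 42.2 to 91.6 per wild-type library and 5.04 to 10.03 per knockout library. Its call (log2 −2.77, SE 0.40; edgeR adjusted p = 0.0212) was lost on leaving out any of the 6 mice, with edgeR adjusted p-values of 0.0538 to 0.101.

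Vmn2r57 and Vmn2r63 open and close this cluster and differed in response; the pair was chosen after their values were seen. Vmn2r63 was at 28.6, 25.5 and 29.1 CPM in wild types and 5.31, 5.33 and 5.15 in knockouts (log2 −2.40, SE 0.08; edgeR adjusted p = 4.45e-06). Vmn2r57 was at 22.1, 19.97 and 25.1 CPM and at 21.02, 22.3 and 22.5, with the knockouts inside the wild-type range (log2 −0.03, SE 0.09; edgeR adjusted p = 0.949). The first 120 bases of their last coding exons (GRCm38) differ at 3 bases, in capitals.

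Vmn2r57, chr7:41400544-41400663, minus strand: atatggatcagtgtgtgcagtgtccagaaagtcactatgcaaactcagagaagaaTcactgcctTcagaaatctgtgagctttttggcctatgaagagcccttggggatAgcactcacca

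Vmn2r63, chr7:42904051-42904170, minus strand: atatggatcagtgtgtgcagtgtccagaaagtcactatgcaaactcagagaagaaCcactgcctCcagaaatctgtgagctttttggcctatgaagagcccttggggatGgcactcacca

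In the cluster of Vmn2r66 to Vmn2r79, 7 of 14 genes were called lower, 1 was called higher and 6 were not called. The 3 largest falls were at Vmn2r76, Vmn2r78 and Vmn2r79. Vmn2r79 was at 54.8, 45.8 and 62.1 CPM in wild types and 13.6, 13.4 and 15.98 in knockouts (log2 −1.92, SE 0.12; edgeR adjusted p = 0.000156). Vmn2r78 was at 31.3, 30.9 and 35.0 CPM and at 8.05, 7.74 and 9.69 (log2 −1.93). Vmn2r76, with 94.5% of its words its own, was at 34.0, 34.0 and 41.4 CPM and at 10.01, 8.43 and 11.8 (log2 −1.85). These 3 genes kept between 26.2% and 27.6% of their wild-type level.

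The falls among the neighbours Vmn2r66 to Vmn2r75 were smaller. Vmn2r67 (log2 −0.96), Vmn2r73 (−0.78), Vmn2r69 (−0.72) and Vmn2r70 (−0.60) were called lower. Vmn2r69 was at 63.5, 63.1 and 71.9 CPM in wild types and 35.6, 43.2 and 41.9 in knockouts. Vmn2r70 lost its call without wild-type mouse 1, 2 or 3 or knockout mouse 1 or 3, with edgeR adjusted p up to 0.108. Vmn2r66, Vmn2r68, Vmn2r71, Vmn2r74, Vmn2r75 and Vmn2r77 were not called, with log2 fold changes from −0.73 to 0.76. Vmn2r77 (−0.73) was called lower in 5 of 16 alternative settings: without knockout mouse 3 (edgeR adjusted p = 0.00778, against up to 0.256 without another mouse), in males only, with the replicate number as a block, with DESeq2 and with no filter. Vmn2r70 and Vmn2r71 overlap on opposite strands. The library kit keeps strand, but its use in counting is not given in the sources used here, so their reads may not be fully separate.

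Vmn2r72, with 74.0% of its words its own, was called higher. It was at 9.48, 9.495 and 9.17 CPM in the wild types and at 16.2, 17.6 and 18.8 in the knockouts. All 3 knockouts were above all 3 wild types, and the gene was 1.87-fold higher (log2 0.90, SE 0.08; edgeR adjusted p = 0.00116). The call held in each of the 6 fits that left out a mouse, but not in limma on log2(TPM + 0.1), with an adjusted p of 0.0583.

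**Figure D3:**
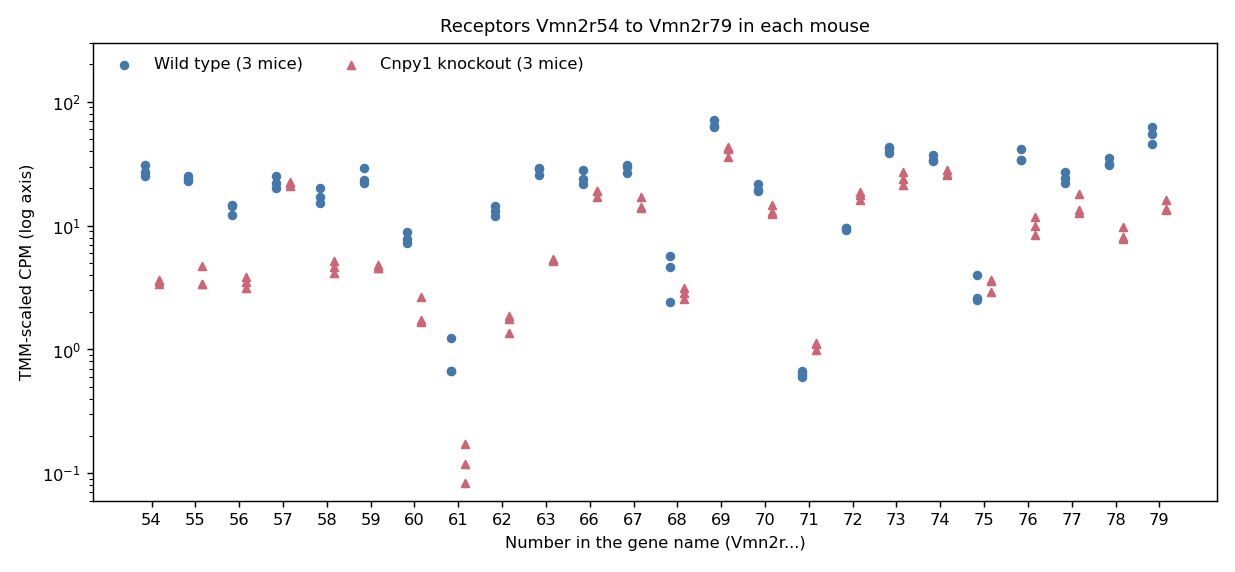
TMM-scaled CPM (log axis) of Vmn2r54 to Vmn2r79 in each mouse, circles for wild type and triangles for knockout. Knockout mice lie below all wild types in 19 genes, above in Vmn2r71 and Vmn2r72, and among them in Vmn2r57, Vmn2r68 and Vmn2r75.

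Per transcript length, the order of the receptors also differed between genotypes. In wild types the highest of the block was Vmn2r55 at 14.6 ± 0.592 TPM (abundance scaled by length; SD, n = 3), followed by Vmn2r79 (11.1 ± 1.89), Vmn2r77 (11 ± 1.36), Vmn2r78 (10.9 ± 1.40) and Vmn2r54 (9.85 ± 0.700). The second to the fifth do not differ beyond their spread. In knockouts Vmn2r77 was highest (6.37 ± 1.85 TPM), and next came Vmn2r72 (4.87 ± 0.704) and Vmn2r57 (4.34 ± 0.472), which ranked 17 and 12 in wild types. Vmn2r55 ranked 9 in knockouts. In the lower-numbered block the wild-type order began with Vmn2r42 (77.8 ± 11.6 TPM), Vmn2r48 (68.6 ± 10.31), Vmn2r30 (66.2 ± 11.3), Vmn2r36 (65.2 ± 9.66) and Vmn2r49 (60.4 ± 12.0), which overlap in their spread. The place of Vmn2r48 rests on very little sequence of its own (0.0788%). The block's median was 18.7 TPM in wild types and 17.6 in knockouts, against 4.68 and 1.65 in Vmn2r54 to Vmn2r79. Across genes, Spearman's rho between wild-type and knockout TPM was 0.86 over 23 genes and 0.54 over 24. These are descriptions, since the genes share libraries.

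As whole blocks, both were lower in knockouts and the higher-numbered block by more. Vmn2r28 to Vmn2r52 summed to 1811, 1840 and 2111 CPM in wild types and to 1276, 1572 and 1521 in knockouts, 75.8% of the wild-type mean. Vmn2r54 to Vmn2r79 summed to 545, 528 and 609.6 CPM and to 243, 268 and 273, which is 46.5%. The log2 ratio of the first block to the second was 1.78 ± 0.04 in wild types and 2.48 ± 0.08 in knockouts (SD, n = 3 each), a difference of 0.70. This ratio does not depend on library scaling. Neither sum nor the ratio overlapped between genotypes. The 2-sided exact permutation p was 0.1 for each of these 3 comparisons, the smallest that 3 mice against 3 allow, and 0.1 after adjustment over the 3.

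By cluster, the knockout sum was 58.8% of wild type for Vmn2r28 alone, 76.7% for Vmn2r29 to Vmn2r52 and 16.6% for Vmn2r54 to Vmn2r56. It was 35.2% for Vmn2r57 to Vmn2r63 and 55.1% for Vmn2r66 to Vmn2r79. Of all reads on numbered V2R genes, Vmn2r28 to Vmn2r52 held 34.2% ± 1.15 in wild types and 39.0% ± 1.37 in knockouts, and Vmn2r54 to Vmn2r79 held 9.99% ± 0.407 and 7.0% ± 0.247 (SD, n = 3 each). The lower-numbered genes thus made up more of the V2R reads of each knockout, although their sum was smaller.

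**Figure D4:**
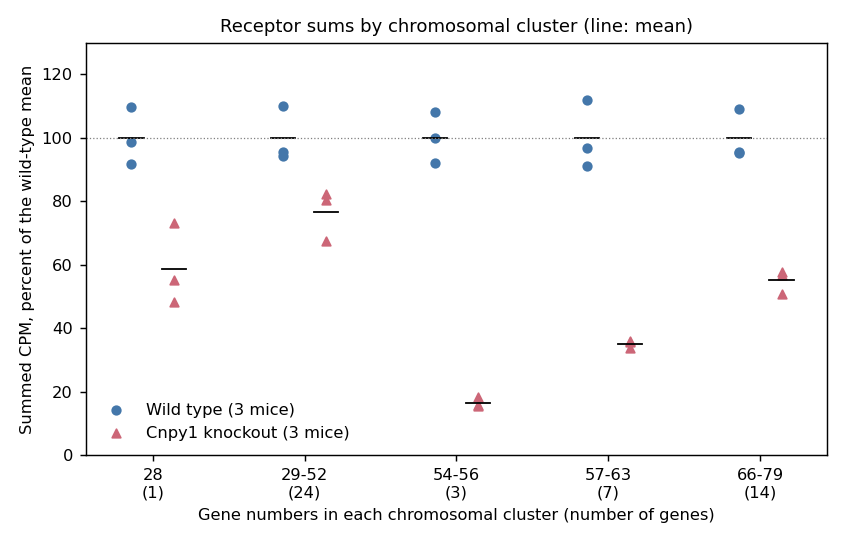
Summed CPM of each chromosomal cluster in each mouse, as a percent of the cluster's wild-type mean (dotted line, 100%); circles are wild types, triangles knockouts, black lines means. The knockout means run from 16.6% for Vmn2r54 to Vmn2r56 up to 76.7% for Vmn2r29 to Vmn2r52.

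Calls were also frequent among V2R genes outside the group. Of the 47 chromosome 7 genes tested, 29 (61.7%) were called, 23 lower and 6 higher, with a median log2 fold change of −0.68. Of the 72 numbered V2R genes elsewhere or outside the rule, 39 (54.2%) were called, 38 lower and 1 higher, with a median of −0.78. The background over all genes tested was 0.761% called, 0.683% lower and 0.0779% higher. The difference between the sets of V2R genes was not tested. Among the 25 chromosome 7 genes with over 50% of words their own, 14 were called lower and 1 higher, with a median of −0.77.

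A context list held 31 other genes of vomeronasal neurons, most of them known from basal neurons and some, such as Omp, Trpc2, Stom and Ano1, active in both classes. Of 30 tested (not Kcnj6), 7 were called lower, none was called higher and 23 were not called, with a median log2 fold change of −0.28. At an unadjusted edgeR p under 0.05, 1 was higher, H2-M10.4 (log2 0.44), which DESeq2 called; limma called none higher. The count called lower was 16 with DESeq2, 7 with limma-voom and 4 in limma on log2(TPM + 0.1). Of all genes, 0.683% were called lower by edgeR and 1.77% by DESeq2, and 0.0779% and 0.531% were called higher. The co-receptors Vmn2r1, Vmn2r6 and Vmn2r7 were called lower, with log2 fold changes of −0.72, −0.65 and −0.61. The 4 other co-receptors were not called: Vmn2r2 was at −0.44, Vmn2r4 at −0.36, Vmn2r5 at −0.26 and Vmn2r3 at −0.12, the last 2 with overlapping genotypes. H2-M10.3 (−0.59) and H2-M10.1 (−0.42), nonclassical class I molecules of basal neurons, were also called, as were the G protein subunit Gnao1 (−0.41) and the membrane protein Stom (−0.36). Gnao1 was at 305, 306 and 320.1 CPM in wild types and 239.6, 225 and 237 in knockouts, without overlap. Leaving out single mice, Vmn2r1 kept its call in 6 of 6 fits, Vmn2r6 and H2-M10.3 in 5, Vmn2r7 in 3, Gnao1 in 1, and Stom and H2-M10.1 in 0. Markers of progenitors and immature neurons summed to 100.5 to 120 CPM in wild types and 116 to 137 in knockouts, with Top2a, a cell-cycle gene, called higher. The part of cell composition in the receptor differences was not tested.

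Sex was no term of the main comparison. With sex added as a term, Vmn2r29, Vmn2r36, Vmn2r37 and Vmn2r42 lost their call, which left 3 genes called lower in Vmn2r28 to Vmn2r52, and Vmn2r38 lost its call as higher. Their edgeR adjusted p-values were then 0.0557 to 0.0831. In a fit with a genotype-by-sex term, edgeR called 0 of 47 receptors (smallest adjusted p 0.741, Vmn2r77) and 0.024% of all genes, 0.006% lower and 0.018% higher. At an unadjusted p under 0.05 there were 6 (12.8%), against 4.5% of all genes. Each genotype had 1 female, so sex and animal cannot be told apart there.

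Upstream sequence in RefSeq (GRCm38.p6, 250 bases before to 50 after the start) was available for 45 of the 49 genes, and motifs were searched on both strands, each counted independently of the others. The E-box CANNTG was in 45 of 45 windows, against 72.1% of 27025 mouse promoters of the same length. The TATA box TATAAA was in 2 (Vmn2r57 and Vmn2r62), against 14.2% of promoters. The homeodomain core TAATTA was in 2 (Vmn2r58 and Vmn2r59), against 5.31%. An EBF (Olf-1) type palindrome was in 0, against 0.914%, and an AP-2-type site, GCCNNNGGC, was in 2 (Vmn2r66 and Vmn2r75), against 16.5%. Near-copies share their upstream DNA and so are not independent windows. Some RefSeq starts were far from the GENCODE gene start: 52375 bases in Vmn2r71, 30961 in the Vmn2r29 window searched, and 8701 in Vmn2r60. The distance was 4185 bases in Vmn2r54, 1899 in Vmn2r56 and at most 350 in the other genes.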

How the data were processed

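Vomeronasal organ poly(A) RNA of 6 mice, littermates per the series' design text, was sequenced, 1 library per mouse, and each mouse counted as 1 replicate. The authors deposited, per the file headers, an estimated count of reads, a TPM value and an effective length for 117081 transcripts in each library. The submitters' processing notes name Trim Galore 0.6.6, Salmon 1.9.0 and DESeq2, and the builds mm10 and GRCm38; the annotation behind the Salmon index is not given in the sources used here. Estimated counts of a read shared by near-identical genes are divided between them by the quantifier, so single values of such genes are uncertain.

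Transcripts were joined to GENCODE M21 by identifier (115942 matched; the 1139 others held 0.304% of reads and were left out), and estimated counts and deposited TPM were summed to 35450 genes. Count sums were rounded and tested with edgeR 4.0.16 (R 4.3.3; TMM, filterByExpr, quasi-likelihood F test, genotype as the term, Benjamini-Hochberg over 16679 genes, threshold 0.05). The common biological coefficient of variation was 12.8%. Block sums and their ratio were compared by exact permutation. Alternatives were DESeq2 1.42.0, limma 3.58.1 (voom, and log2(TPM + 0.1)), other scaling, no filter, sex or replicate number as terms, males only, effective lengths as an offset, and leaving out each mouse.

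Every receptor was accounted for. The text names up to 10 called genes per direction and block by size of change, the 5 highest by wild-type TPM, genes listed at 0, other called genes that stood alone in their sequence group, and called genes of the context list. The other co-receptors of that list were added after their values were seen. The members and lists were chosen with earlier results of these data known. Markers of main olfactory neurons (100.7 to 131 CPM summed in wild types, 70.2 to 145 in knockouts), immune cells (160 to 174 and 169 to 189.8), vascular cells (73.3 to 87.7 and 78.8 to 90.7) and glia (93.3 to 103 and 90.3 to 119) overlapped between genotypes. Markers of respiratory and ciliated epithelium summed to 135 to 148 and 157 to 172, and those of mature neurons of both classes to 2532 to 2783 and 2088 to 2167. No listed marker was at 0 in all libraries.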

Additional observations from a re-analysis of the deposited data

How the results depend on the processing

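All 29 called receptors kept their direction in 16 alternative settings each. Every setting used the deposited division of reads, so none could change how reads were split among near-copies. In Vmn2r54 to Vmn2r79, 12 of 17 were called in every setting (Vmn2r54, Vmn2r55, Vmn2r56, Vmn2r58, Vmn2r59, Vmn2r60, Vmn2r62, Vmn2r63, Vmn2r67, Vmn2r76, Vmn2r78 and Vmn2r79); in Vmn2r28 to Vmn2r52, 4 of 12 were (Vmn2r31, Vmn2r40, Vmn2r41 and Vmn2r44). The 7 genes called lower in Vmn2r28 to Vmn2r52 became 12 with DESeq2, 3 with sex as a term, 4 in males only, 4 with effective lengths as an offset, and 3 to 7 leaving out single mice. The 5 called higher became 2 in limma on log2(TPM + 0.1), 1 in males only, and 1 to 5 leaving out single mice. In Vmn2r54 to Vmn2r79, limma on TPM called 0 higher in place of 1. For the sequence groups, 17 rows called lower became 8 when joined at 20%, where fewer rows remain, and 1 called higher became 3 when joined at 80%. The 17 rows became 14 to 16 when single mice were left out. In the same fits, 14 to 15 genes were called lower in Vmn2r54 to Vmn2r79, in place of 16. With deposited TPM, the sum of Vmn2r54 to Vmn2r79 had a log2 difference of −1.40 in place of −1.10, and the block ratio 0.98 in place of 0.70. Of the receptors not called, 9 gained a call in at least 1 setting (Vmn2r28, Vmn2r30, Vmn2r34, Vmn2r39, Vmn2r45, Vmn2r52, Vmn2r66, Vmn2r74 and Vmn2r77). Other causes of these changes were not tested. DESeq2 called 2.3% of all genes, against 0.761%. The genotype-by-sex count was 0 under other scaling and without a filter.

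The labels do not say whether the replicate numbers pair the mice. Correlations of deviations from the genotype means were 0.15, −0.09 and 0.23 for same-numbered mice. For differently numbered mice they ran from −0.29 to 0.17. So few overlapping values cannot decide whether mice were paired. With the replicate number as a block, 9 and 6 genes were called lower and higher in Vmn2r28 to Vmn2r52, and 16 and 1 in Vmn2r54 to Vmn2r79. With 3 mice a genotype, exact permutation cannot go below 0.1. Vmn2r61 and Vmn2r71 had under 100 reads in every library.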
